A study of Mus musculus with 18 samples.

Results

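The 10 genes described here belong to the growth hormone pathway of the hepatocyte or are linked to it. The receptor genes are Ghr, for growth hormone, and the related Prlr, for prolactin. The others are the kinase gene Jak2, the transcription factor genes Stat5a and Stat5b, the feedback inhibitor genes Socs2 and Cish, the hormone gene Igf1 and the nuclear repressor genes Bcl6 and Cux2. The 10 are a list of names, with no threshold on a measured value, and earlier results of these data were known when the list was made. They are 10 of the 52230 genes with a summed count, and all 10 were among the 10938 genes abundant enough to be tested.

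Growth hormone binds a dimer of its receptor, which activates the receptor-bound kinase JAK2. JAK2 phosphorylates STAT5A and STAT5B, and these enter the nucleus and bind DNA as dimers. Among the genes they switch on in liver are Igf1, which makes the main circulating growth factor downstream of growth hormone, and Socs2 and Cish, whose products damp the same signal. In rodents growth hormone is secreted in pulses in males and more evenly in females, and liver STAT5 activity follows that pattern. CUX2, a female-enriched repressor of male-biased genes, and BCL6, a male-enriched repressor of STAT5 target genes, are part of the sex difference of the liver.

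Liver RNA was sequenced from 18 mice of a knock-in line on a B6N background, 1 library per mouse, all on standard chow. PP mice carried wild-type Gckr (label Gckr-446P) and LL mice the knock-in allele (Gckr-446L), in which a proline of GKRP, the nuclear inhibitor of glucokinase in liver, is replaced by a leucine. The groups were male PP (n = 4, aged 9 to 14 weeks), male LL (n = 4, 13 to 14 weeks), female PP (n = 5, 9 to 14 weeks) and female LL (n = 5, 11 to 14 weeks) by the sample labels, while the series text gives 14 weeks for all. Nothing in these libraries measures circulating growth hormone.

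Libraries held between 3794671 and 6613905 estimated counts. Summed counts of 6 hepatocyte marker genes (Alb, Ttr, Apoa1, Tat, Hnf4a and Cps1) made up 3.69e+05 to 7.97e+05 normalised counts per library and were lower in every male than in every female library. No gene of the marker lists for other cell types was at 0 in every library. Their summed levels ran from 286 to 751 normalised counts for Kupffer cells and macrophages, from 141 to 600.4 for endothelium, from 282 to 894.6 for stellate cells and fibroblasts and from 871 to 4939 for erythroid cells. Among PP mice the endothelial sum was 141 to 271 in males and 289 to 600.4 in females, and the stellate and fibroblast sum was 282 to 561 in males and 656 to 894.6 in females, with no overlap. Of these lists 3 endothelial and 3 stellate or fibroblast genes were called in at least 1 comparison, and their part in the sex differences below was not tested. Mean fragment length, estimated from transcript lengths and not measured, differed between female LL (292 bases) and female PP libraries (448 bases, exact permutation test, two-sided p = 0.0159). The other comparisons gave p between 0.190 and 0.333 by the same test, and none of these p-values was adjusted. Values below are counts scaled to a common depth (normalised counts), and a gene is called changed when its DESeq2 adjusted P was below 0.05 and its level was 1.3 times or more, or 0.7 times or less, that of the other group. The whole liver was sampled, so fewer cells of a type and less RNA per cell cannot be told apart. Each group enters more than one comparison, so the comparisons share libraries and their values are given side by side.

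Members of the pathway were called between the sexes. Between the genotypes none was called, and so few of all genes were that 0 of 10 does not set the members apart. Between female PP and male PP livers 3 of the 10 genes were called, Prlr and Cux2 higher and Bcl6 lower in females, against 6.45% of all genes tested (3.68% higher and 2.77% lower). Between female LL and male LL livers 4 of 10 were called, Prlr, Cux2, Socs2 and Stat5b, all higher in females, against 6.12% of all genes (3.33% higher and 2.79% lower). By genotype 0 of 10 were called in males (0.283% of all genes, 0.21% higher and 0.0731% lower) and 0 of 10 in females (0.658%, 0.366% higher and 0.293% lower). In males 7 of the 10 had no adjusted P under the independent filter of DESeq2 and so could not be called. Without that filter 0 of 10 were called in males, where 30 of all 10938 genes were. At an unadjusted p below 0.05 there were 2 members in males (Socs2 and Stat5a) and 0 in females, where the shares of all genes were 7.83% and 13%. The edgeR quasi-likelihood test also called 0 members by genotype in either sex.

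**Figure D1:**
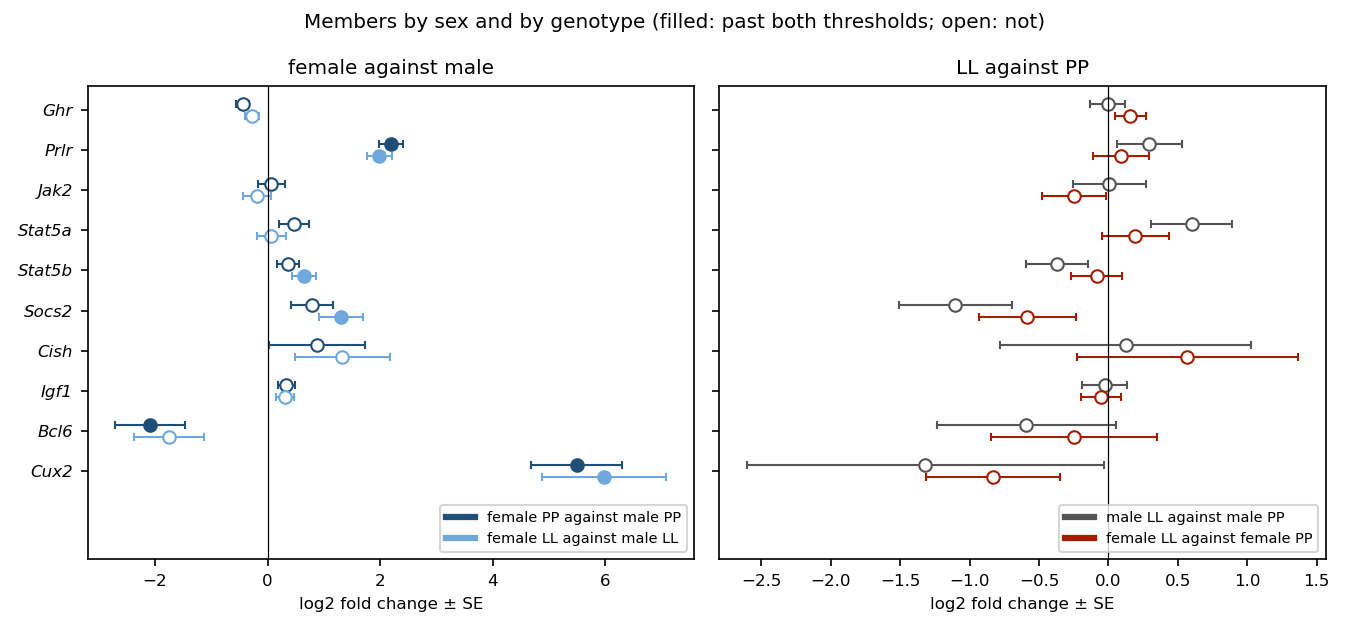
Log2 fold change of each of the 10 genes (points, DESeq2) with its standard error (bars), for the 2 sex comparisons on the left and the 2 genotype comparisons on the right; filled points passed both thresholds. Prlr and Cux2 lie far to the right in both sex comparisons, while every genotype point is open.

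Per transcript length, expressed as TPM (abundance scaled for length and depth by the authors), Igf1 and Ghr stood above the other members in both sexes. The median over the 18 livers was 483 TPM for Igf1, 145 TPM for Ghr and 45.4 TPM for Prlr, which was at 8.48 TPM in males and 77.0 TPM in females. Socs2 followed at 6.20 TPM and Cish at 3.12 TPM. The remaining genes lay close together, with Stat5b at 2.11, Stat5a at 1.36, Cux2 at 1.3, Bcl6 at 1.29 and Jak2 at 1.24 TPM, and their ranges over the mice overlapped. Cux2 was at 0.0114 TPM in males and 3.76 TPM in females. The kinase and the transcription factors were measured on far fewer reads than the receptors and Igf1.

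Ghr (chr15:3347235-3613024, minus strand, GRCm39), the growth hormone receptor, was lower among PP mice in females by normalised counts, a direction that turned on the TPM scale. In male PP livers the values were 2782, 2132, 2998 and 2370.3 normalised counts, and male LL livers 3035, 2428, 2585 and 2193. In female PP livers they were 1842, 1744, 2058, 1905 and 1918, and female LL livers 2279.7, 2076, 2054, 2353 and 1798. Every female PP liver lay below every male PP liver, whereas the LL groups overlapped. Mean Ghr was 1894 ± 115 in female PP (SD, n = 5) against 2571 ± 392 in male PP livers (n = 4), a difference of -0.44 ± 0.12 on the log2 scale (SE; adjusted P = 0.00608 by DESeq2) that passed the P threshold but not the fold threshold. In LL mice it was -0.28 ± 0.12 (DESeq2 adjusted P = 0.151). On the TPM scale the sign was opposite (log2 0.33 higher in female PP, limma adjusted P = 0.137), where the median of all genes was itself 0.50 higher in female PP than in male PP livers, so Ghr lay below that median on both scales. Between LL and PP livers Ghr differed by -0.01 ± 0.13 in males and 0.16 ± 0.11 in females (log2; DESeq2 adjusted P = 0.997 and 0.539), with 95% intervals of the fold change from 0.839 to 1.18 and from 0.956 to 1.3.

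Prlr (chr15:10177258-10349959, plus strand), the prolactin receptor, a close relative of Ghr that also signals through JAK2 and STAT5, had the smallest adjusted P of the members in both sex comparisons. The 4 male PP livers had 214, 209, 239 and 248 normalised counts and male LL livers 508, 209, 186 and 218. The 5 female PP livers had 990.1, 1216, 850.2, 1163 and 993 and female LL livers 1017, 1144, 1224, 1008 and 1151. By normalised counts no male liver reached the level of any female liver, and the first male LL liver stood above all other males. On the TPM scale male PP replicate 4 (48.0) lay above female LL replicates 1 (38.8) and 4 (42.9). Prlr was 4.57-fold higher in female PP than in male PP livers (log2 2.19 ± 0.22, DESeq2 adjusted P = 1.62e-20) and 3.97-fold higher in female LL than in male LL livers (1.99 ± 0.22, adjusted P = 7.64e-17). These 2 calls held in all 29 alternative settings, and the log2 difference in LL mice was 2.44 without the first male LL liver. By genotype the log2 fold change was 0.29 ± 0.24 for males (DESeq2, adjusted P = 0.679) and 0.09 ± 0.20 for females (adjusted P = 0.883), and in males it was -0.16 without the first LL liver.

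**Figure D2:**
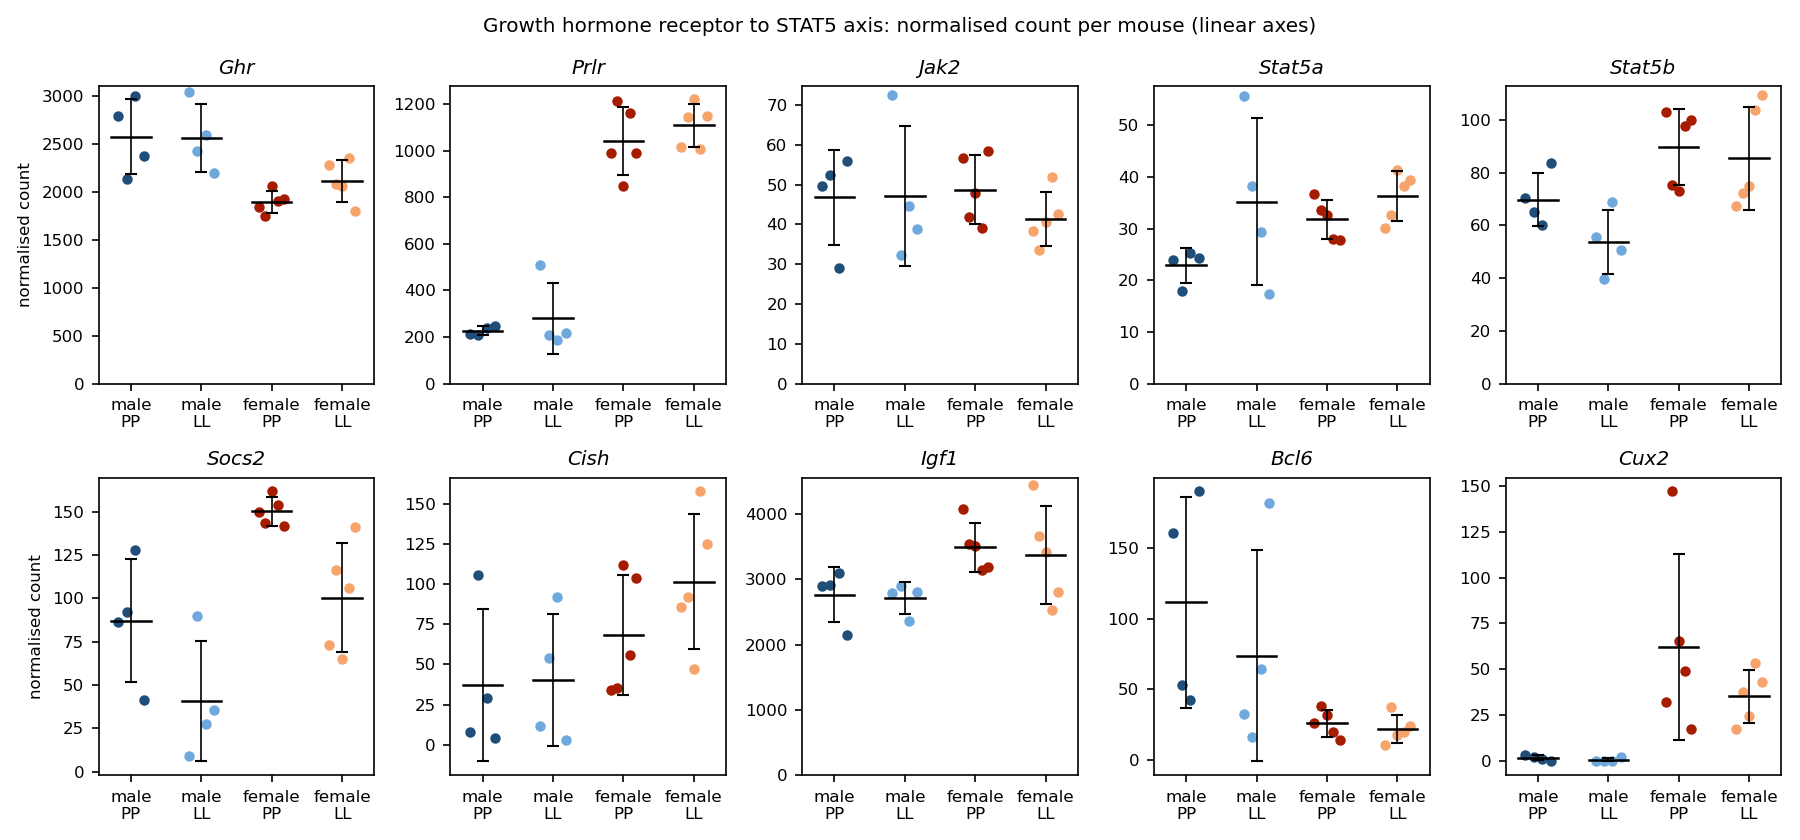
Normalised count (linear axes from or just below 0) of the 10 genes in each of the 18 livers (points), with the group mean (horizontal bar) and SD (error bar). Prlr and Cux2 separate the sexes without overlap, the male groups of Cish and Bcl6 spread over most of their panel, and PP and LL points of 1 sex overlap in every panel except Socs2 in females.

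Both receptor genes make a long form that signals and short forms that lack most or all of the part inside the cell. For Ghr the long form (Ghr-201, 650 codons) took on average 77.3% ± 3.1 of the estimated counts of the gene in male PP livers (SD over 4 mice), 79.99% ± 4.0 in male LL (4 mice), 75.1% ± 1.7 in female PP (n = 5) and 75.5% ± 2.0 in female LL livers (n = 5). The short transcript Ghr-203 (297 codons), which encodes the soluble growth hormone binding protein, took 19.0%, 18.8%, 22.7% and 21.9% in the same order. The ranges of the long form overlapped between the groups of every comparison. The smallest exact p for Ghr was 0.0635 (female LL against male LL, a difference of -4.50 percentage points, two-sided exact permutation test, adjusted p = 0.190 over the 8 tests of both genes).

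For Prlr the long form (Prlr-202, 608 codons) took 29.5% ± 8.3 in male PP, 26.2% ± 4.4 in male LL, 26.01% ± 5.0 in female PP and 20.7% ± 2.9 in female LL livers. The short form Prlr-205 (310 codons) held the largest share, 39.2% ± 4.4, 56.2% ± 8.5, 43.1% ± 6.6 and 61.9% ± 9.4 in that order. Of the 4 comparisons of the long form, the smallest exact p was 0.0476 (female LL against male LL, -5.57 percentage points, two-sided exact permutation test, adjusted p = 0.190). None of the 8 shares of both genes passed the adjusted threshold. Both forms averaged higher in females. Prlr-202 averaged 68.1 normalised counts in male PP and 272 in female PP livers, and Prlr-205 averaged 88.7 and 452.

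**Figure D3:**
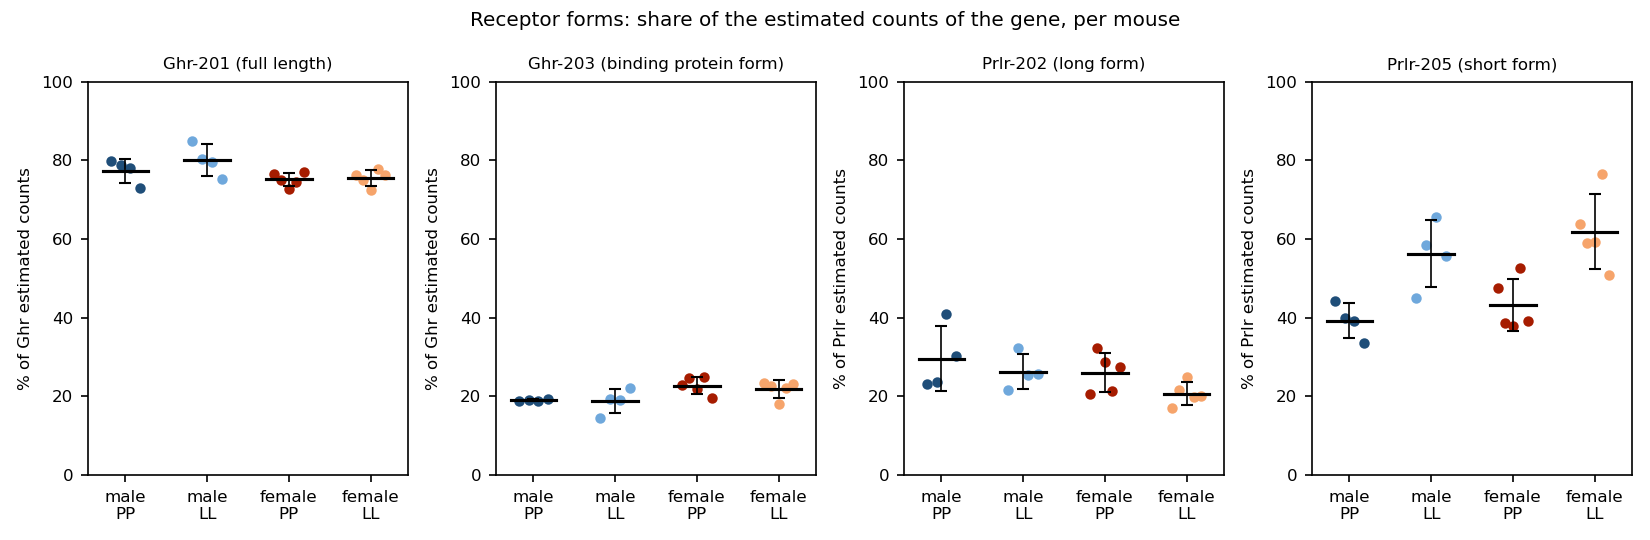
Share of the estimated counts of Ghr or Prlr (percent, axes from 0 to 100) that fell on 2 transcripts of each gene, per liver (points), with group mean (bar) and SD (error bar). The long Ghr form lies between 72.4% and 85.0% in all 18 livers, and the short Prlr form lies higher in LL than in PP livers of the same sex on average.

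Jak2 (chr19:29228677-29290505, plus strand), the kinase that the receptor activates, overlapped between the groups of every comparison. It lay between 29.1 and 55.8 normalised counts in male PP, between 32.4 and 72.6 in male LL, between 39.0 and 58.3 in female PP and between 33.6 and 51.8 in female LL livers. The female PP against male PP fold change was 1.05 with a 95% interval from 0.755 to 1.46. In LL mice it was 0.880 (0.628 to 1.23). By genotype it was 1.00 in males (0.704 to 1.43) and 0.842 in females (0.617 to 1.15). On the TPM scales limma called Jak2 higher in female PP than in male PP livers (log2 0.51 and 0.91, adjusted P = 0.0242 and 0.0228). The median of all genes was itself 0.50 and 0.73 higher there. Both scales also called Stat5a, Stat5b, Socs2 and Igf1 higher in that comparison.

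Stat5b (chr11:100671556-100741589, minus strand) is the main STAT5 gene of liver, and it was higher in female LL than in male LL livers. Male PP values were 70.4, 65.0, 60.2 and 83.7 normalised counts and male LL livers 55.7, 39.6, 68.7 and 50.8. Female PP values were 103, 75.5, 73.0, 97.8 and 99.9 and female LL livers 67.4, 72.1, 74.8, 104 and 109. The sexes overlapped in both genotypes. Stat5b was 1.57-fold higher in female LL than in male LL livers (log2 0.65 ± 0.21, DESeq2 adjusted P = 0.0317). In PP mice the log2 difference was 0.36 ± 0.20 (adjusted P = 0.342), and averaged over genotypes, a contrast added after the data were seen, it was 0.51 ± 0.14 (DESeq2 adjusted P = 0.00548). The LL call was lost in 9 of 29 alternatives, among them edgeR (adjusted P = 0.0502) and leaving out male LL replicate 1, 2 or 4 or female LL replicate 4 or 5 (adjusted P between 0.0715 and 0.153). The 29 include leaving out each PP library in turn, which is in neither group compared here.

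Stat5a (chr11:100750177-100776065, plus strand), the neighbouring and closely related gene, was not called by DESeq2 in any comparison. It was called higher in female PP than in male PP livers by limma on both TPM scales (log2 0.60 and 1.10, adjusted P = 0.0247 and 0.0195), where the median of all genes was 0.50 and 0.73 higher. Among male PP livers it was at 24.0, 17.8, 25.4 and 24.3 normalised counts and male LL livers 55.7, 38.4, 29.4 and 17.3. Among female PP livers it was at 36.7, 33.6, 32.7, 28.1 and 27.8, all above the male PP livers, and female LL livers 30.0, 32.6, 41.5, 38.3 and 39.4. The spread of the male LL group covered all of the other groups. The log2 genotype difference in males was 0.60 ± 0.29 at an unadjusted DESeq2 p of 0.0398, with no adjusted P because the gene fell under the independent filter, and it was 0.30 without the first male LL liver. The STAT5 genes share 836 of their 31-base words, 10.3% of those of Stat5a and 14.8% of those of Stat5b, so a part of their reads could be split between them by the counting.

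Socs2 (chr10:95219523-95253929, minus strand), an inhibitor of growth hormone receptor signalling that STAT5 induces, was lower on average in LL livers of both sexes, and neither difference was called. Counts in male PP livers were 86.4, 92.3, 128 and 41.4 normalised counts and male LL livers 9.07, 89.9, 27.7 and 35.6. Counts in female PP livers were 150.1, 144, 162, 154 and 142 and female LL livers 72.8, 117, 65.0, 106 and 141. The female PP livers were close together (CV 5.47%) and all above the female LL livers, though the lowest PP and highest LL values differed by less than 1 count. In females Socs2 was 1.5-fold lower in LL (log2 -0.59 ± 0.35, DESeq2 adjusted P = 0.427). In males it was 2.15-fold lower in LL with overlapping groups (log2 -1.10 ± 0.41, unadjusted p = 0.00691 and no adjusted P under the independent filter of DESeq2). Of 29 alternatives only 16 gave an adjusted P for the male difference, so the others could not call it. It was called in 1, without male LL replicate 2 (log2 -1.82, DESeq2 adjusted P = 0.000581). Averaged over the sexes, a contrast added after the data were seen, the log2 difference was -0.84 ± 0.27 (DESeq2 adjusted P = 0.0611).

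By sex, every female PP liver lay above every male PP liver and the LL groups overlapped. Socs2 was 2.47-fold higher in female LL than in male LL livers (log2 1.31 ± 0.39, DESeq2 adjusted P = 0.0165) and 1.73-fold higher in female PP than in male PP livers (0.79 ± 0.37, adjusted P = 0.233). Averaged over genotypes it was 2.07-fold higher in females (DESeq2 adjusted P = 0.00161). The LL call was lost in 8 of 29 alternatives, including edgeR (adjusted P = 0.0703), a fragment length term (adjusted P = 0.0848), and leaving out male LL replicate 1, 3 or 4 or female LL replicate 5. Here too the 29 include leaving out each PP library, which is in neither LL group. A difference of the genotype effects between the sexes did not pass the interaction test (log2 0.52 ± 0.54, no adjusted P). In that test 0 of 10 members were called against 0.119% of all genes (0.064% higher and 0.0549% lower), with 0 members at an unadjusted p below 0.05 (5.67% of all genes) and 0 called by edgeR. There 7 of the 10 had no adjusted P, and without the independent filter 0 of 10 were called (8 of all genes). Socs2 shares 4.85% of its 31-base words with the gene model Gm9847.

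Cish (chr9:107173225-107179983, plus strand), the other STAT5-induced inhibitor, varied more between males than any other member. In male PP livers the values were 8.0, 106, 29.1 and 4.50 normalised counts and male LL livers 11.7, 54.0, 91.9 and 3.24. In female PP livers they were 34.3, 35.5, 112, 56.2 and 104 and female LL livers 85.6, 91.9, 47.2, 158 and 125. The highest mouse was 23.5-fold above the lowest in male PP and 28.4-fold in male LL livers, while all 10 females lay between 34.3 and 158. The SD of log2 values within groups was 1.97 in males and 0.73 in females. None of the 4 comparisons was called: the log2 sex difference was 0.89 ± 0.85 in PP and 1.33 ± 0.85 in LL mice (DESeq2 adjusted P = 0.692 and 0.387), and the genotype difference 0.12 ± 0.90 in males and 0.57 ± 0.80 in females. Without male PP replicate 2 the log2 sex difference in PP mice was 2.29 (adjusted P = 0.0892) and the male genotype difference 1.53. Without male LL replicate 3 the sex difference in LL mice was 2.14 and the male genotype difference -0.69. Cish shares 10.4% of its 31-base words with other transcripts.

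Bcl6 (chr16:23783802-23807602, minus strand), the male-enriched repressor, ranged widely among males. The 4 male PP livers had 160.0, 53.5, 42.3 and 189.9 normalised counts and male LL livers 32.4, 16.8, 64.2 and 181. The 5 female PP livers had 26.4, 38.2, 31.9, 19.9 and 14.6 and female LL livers 10.9, 37.5, 17.9, 19.7 and 24.1. All female PP values lay below all male PP values, and in LL mice the sexes overlapped. Bcl6 was 4.26-fold lower among PP mice in females than in males (log2 -2.09 ± 0.62, DESeq2 adjusted P = 0.0147) and 3.36-fold lower in female LL than in male LL livers (-1.75 ± 0.62, adjusted P = 0.0634). The PP call was lost in 6 of 29 alternatives: on both TPM scales, with the replicate number as a term, and without male PP replicate 1 (log2 -1.87, adjusted P = 0.0925), male PP replicate 4 (-1.70, adjusted P = 0.116) or female PP replicate 5 (-1.94, adjusted P = 0.0514). The 29 include leaving out each LL library, which is in neither PP group. Averaged over genotypes the log2 difference was -1.92 ± 0.44 (DESeq2 adjusted P = 0.000278). By genotype it was -0.59 ± 0.64 in males (unadjusted p = 0.359) and -0.25 ± 0.60 in females (DESeq2 adjusted P = 0.890). Without male LL replicate 4 the log2 sex difference in LL mice was -0.80 (adjusted P = 0.387) and the male genotype difference -1.54 (adjusted P = 0.183).

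Cish and Bcl6 were set side by side in each mouse, since STAT5 induces the one and represses the other. The male PP livers, in replicate order, had Cish at 8.0, 106, 29.1 and 4.50 and Bcl6 at 160.0, 53.5, 42.3 and 189.9 normalised counts. The male LL livers had Cish at 11.7, 54.0, 91.9 and 3.24 and Bcl6 at 32.4, 16.8, 64.2 and 181. The livers with the highest Bcl6 were low in Cish, but the first male LL liver was low in both. After centring on the group means the correlation over the 18 livers was r = -0.59 (permutation within groups, p = 0.0804, adjusted p = 0.687 over 45 pairs) and rho = -0.50 (permutation p = 0.109, adjusted p = 0.70), and r was -0.41 without the 2 mice farthest in Cish. It was -0.70 over the 8 males and -0.13 over the 10 females. The relation did not pass the threshold.

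**Figure D4:**
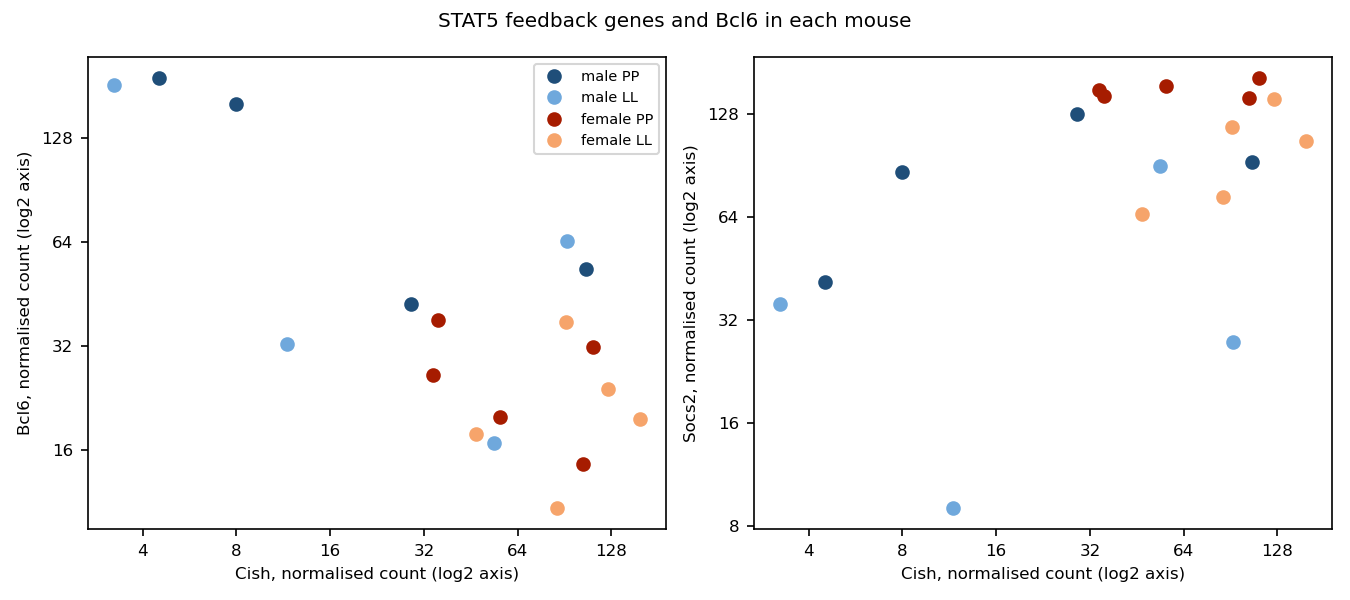
Normalised counts of Bcl6 (left) and Socs2 (right) against Cish in each of the 18 livers, log2 axes. The males spread from 3.24 to 106 in Cish, and the females lie at Cish of 34.3 and above.

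Of the 45 pairs of members, 0 passed an adjusted p of 0.05 for Pearson's r or Spearman's rho. The strongest was Stat5b with Igf1, at r = -0.72 (permutation within groups, n = 18, p = 0.00278, adjusted p = 0.125) and rho = -0.65 (permutation p = 0.0114, adjusted p = 0.437). It stayed at r = -0.66 without the 2 mice farthest in Stat5b, and was -0.80 over the 8 males and -0.68 over the 10 females. Jak2 with Socs2 gave r = -0.70 (permutation p = 0.0228, adjusted p = 0.460), which was -0.88 over the males and 0.04 over the females. Socs2 and Cish, the inhibitor genes with the same inducer, gave r = 0.42 (permutation p = 0.274, adjusted p = 0.829).

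The sequences around the start sites of these genes were searched for TTCNNNGAA, the palindromic core that STAT5 dimers bind, which reads the same on both strands. Windows from RefSeq (build GRCm38.p6) of 250 bases before to 50 after each annotated start were available for 9 of the 10 genes, in 16 windows. Socs2 was not in that table. The core was in 4 of the 16 windows, those of Prlr (1 of its 3), Cish and Bcl6 (both of its starts), against 8.30% of all 32851 windows. The second Bcl6 start has 3 cores, at positions -168, -122 and -88 from the start, and 3 or more were in 0.0335% of all windows. The Cish window has 2, beginning at positions 1 and 12. The following stretches are shown because they hold every core found in the members' windows. Capitals mark the core, and each reads 5′ to 3′ on the strand of the gene.
Bcl6, second start (chr16:23981344-23981473, minus strand): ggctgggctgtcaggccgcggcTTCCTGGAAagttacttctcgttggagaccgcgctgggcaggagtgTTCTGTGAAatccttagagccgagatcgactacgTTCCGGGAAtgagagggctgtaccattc
Bcl6, first start (chr16:23988913-23989012, minus strand): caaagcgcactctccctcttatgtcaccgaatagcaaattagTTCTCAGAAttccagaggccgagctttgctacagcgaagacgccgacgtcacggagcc
Prlr, second start (chr15:10223746-10223845, plus strand): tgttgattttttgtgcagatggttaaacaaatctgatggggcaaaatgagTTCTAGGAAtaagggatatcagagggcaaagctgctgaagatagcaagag
Cish (chr9:107296659-107296678, plus strand): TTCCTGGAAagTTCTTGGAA
A match is a description of letters, not evidence of binding, and the absence of a match in the other 12 windows says only that these letters are not there.

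Igf1 (chr10:87693642-87772904, plus strand), the hormone product of the pathway, was close in level between genotypes. Male PP values were 2902, 2922, 3100.2 and 2147 normalised counts and male LL livers 2790.4, 2904, 2366 and 2804. Female PP values were 4080.3, 3550.2, 3511, 3147 and 3188 and female LL livers 4448, 3661, 3418, 2528 and 2808. Every female PP liver lay above every male PP liver, narrowly, and the LL groups overlapped. The sex difference was 1.26-fold in PP (log2 0.34 ± 0.15, DESeq2 adjusted P = 0.203) and 1.24-fold in LL mice (0.31 ± 0.15, adjusted P = 0.226), and averaged over genotypes 1.25-fold (DESeq2 adjusted P = 0.0237), below the fold threshold. The LL against PP fold change was 0.981 in males (95% interval 0.787 to 1.22) and 0.965 in females (0.793 to 1.17).

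Cux2 (chr5:121994429-122188521, minus strand), the female-enriched repressor, was all but absent in males. Among male PP livers it was at 3.20, 2.10, 0.94 and 0 normalised counts, and the male LL livers had 0, 0, 0 and 2.16. Among female PP livers it was at 31.9, 147, 65.5, 48.9 and 17.4 and female LL livers 17.3, 37.5, 24.4, 53.1 and 42.7. By normalised counts no male reached the level of any female, and 4 of the 8 males had no read. On the TPM scale male LL replicate 4 (0.429) lay above female LL replicate 1 (0.294). Summed over mice, 359 counts in 5 female PP livers stood against 5 in 4 male PP livers, a ratio of 44.3 after scaling for depth (95% exact interval 18.8 to 137, counting error only). In LL mice 169 counts stood against 2, a ratio of 60.9 (16.6 to 507). The DESeq2 log2 fold changes were 5.49 ± 0.81 (adjusted P = 1.23e-09) and 5.98 ± 1.11 (adjusted P = 7.61e-06), and both calls held in all 29 alternatives. Between female LL and female PP livers the log2 difference was -0.83 ± 0.48 (DESeq2 adjusted P = 0.408), with 1 female PP liver at 147 above all others, and without that liver it was -0.23. The log2 sex differences were 4.90 in PP mice without it and 7.41 in LL mice without male LL replicate 4.

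Other parts of cytokine signalling and of the IGF system were read from lists of named genes. Of 31 tested genes for cytokine receptors, adaptors and inhibitors, 1 was called in any of the 4 comparisons: Lepr, the leptin receptor, with 69.6 ± 23.5 normalised counts in female PP (SD, n = 5) and 4.03 ± 1.29 in male PP livers (n = 4), a log2 difference of 4.12 ± 0.50 (adjusted P = 2.83e-14 by DESeq2). The median log2 fold change of the list was -0.01 in female PP against male PP livers, where that of all genes was near 0. In that comparison 3.68% of all genes were called higher. Of 9 tested genes of the IGF axis, Igfbp3, the main carrier of IGF1 in blood (1.94-fold, adjusted P = 0.0113), and Igfbp7 (1.62-fold, adjusted P = 0.0174) were higher in female PP than in male PP livers by DESeq2, a comparison in which the endothelial and the stellate and fibroblast marker sums did not overlap either. Igfals, which joins IGFBP3 and IGF1 in a stable complex and is itself a growth hormone target, was 2.07-fold higher in female LL than in male LL livers (DESeq2 adjusted P = 0.00431). There 3.33% of all genes were called higher. By genotype 0 of the 31 and 0 of the 9 genes were called in either sex. At an unadjusted p below 0.05 there were 5 and 2 in males (7.83% of all genes) and 7 and 2 in females (13%). The genotype log2 fold changes of the 31 genes ran from -1.15 to 2.96 in males and from -0.94 to 0.80 in females. The paper lists Lepr among the genes higher in male LL livers. Between female LL and male LL livers 0 of the 31 were called, so the Lepr call was limited to PP mice. With edgeR the genotype comparisons called 3 genes of all tested in males and 3 in females.

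Among 20 regulators of sex-dependent liver transcription, 2 were called higher in female PP than in male PP livers (3.68% of all genes): Esr1, the oestrogen receptor (2.51-fold, DESeq2 adjusted P = 0.000542), and Trim24, a nuclear receptor cofactor (2.14-fold, adjusted P = 0.00106). In LL mice 3 were called higher in females (3.33% of all genes), Tox (3.45-fold, DESeq2 adjusted P = 3.31e-06), Nr1i3, the xenobiotic receptor CAR (1.91-fold, adjusted P = 0.00288), and Trim24 (2.03-fold, adjusted P = 0.00419), and 1 was lower, Zbtb20 (log2 -0.84 ± 0.28, adjusted P = 0.0372), named here because only 1 fell. By genotype 0 of 20 were called in males and 0 in females, with 1 and 8 at an unadjusted p below 0.05, where the shares of all genes were 7.83% and 13%.

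The sex-biased genes that lie downstream of this pathway in liver were read last. Of 22 male-biased genes, all 22 were lower in mean estimate in females in both genotypes. Of these 19 were called lower among PP mice (2.77% of all genes) and 19 among LL mice (2.79%). Among those called were Mup20, a major urinary protein (log2 -6.68 ± 0.52 in PP, DESeq2 adjusted P = 1.34e-34), Elovl3, a fatty acid elongase (-4.96 ± 0.39, adjusted P = 6.64e-34), and Cyp7b1, an oxysterol hydroxylase (-4.80 ± 0.42, adjusted P = 5.72e-27). By genotype 0 of 22 were called in males (median log2 fold change -0.64, 21 of 22 negative) and 0 of 22 in females (median -0.66, all genes 0.01, 19 of 22 negative). At an unadjusted p below 0.05 there were 2 and 10, where the shares of all genes were 7.83% and 13%. Several Mup genes share long stretches, so their single values are uncertain. The members of the list are regulated together and were chosen with results of these data known, and no test of the list was made.

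Of 19 tested female-biased genes, all 19 had a positive log2 difference between females and males in both genotypes. Of these 17 were called higher among PP mice (3.68% of all genes) and 16 among LL mice (3.33%). In males 14 of 19 had a positive log2 difference between LL and PP, and 4 of 19 were called higher by DESeq2, against 0.21% of all genes called higher there: Abcd2, a peroxisomal transporter of fatty acids (log2 1.95 ± 0.38, DESeq2 adjusted P = 0.000397), Cyp17a1, a steroid hydroxylase (2.24 ± 0.52, adjusted P = 0.00441), Acot3, a thioesterase (2.11 ± 0.61, adjusted P = 0.0470), and Cyp2a4, a cytochrome P450 (3.21 ± 0.93, adjusted P = 0.0484), the last named because only 4 were called. In that comparison edgeR called 2 genes higher of all tested and limma on log2(TPM + 1) called 0, so at least 2 of these calls were lost with edgeR and all with limma on that scale. In females 1 of 19 was called, Cyp39a1, lower in LL (log2 -0.84 ± 0.23, DESeq2 adjusted P = 0.0390), where 0.293% of all genes were called lower. The list median in males was 1.22, or 0.94 when the 5 genes without a read in a male group were set to the bound that 3 counts over the group allow, or left out where both male groups had none. None of the 10 pathway genes was called in the same comparison, where 7 of the 10 had no adjusted P. The female-biased list too was chosen with results of these data known, and no test of it was made. The paper already names Cyp17a1 among the genes higher in male LL livers, so the 4 calls of 19 are a description only.

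**Figure D5:**
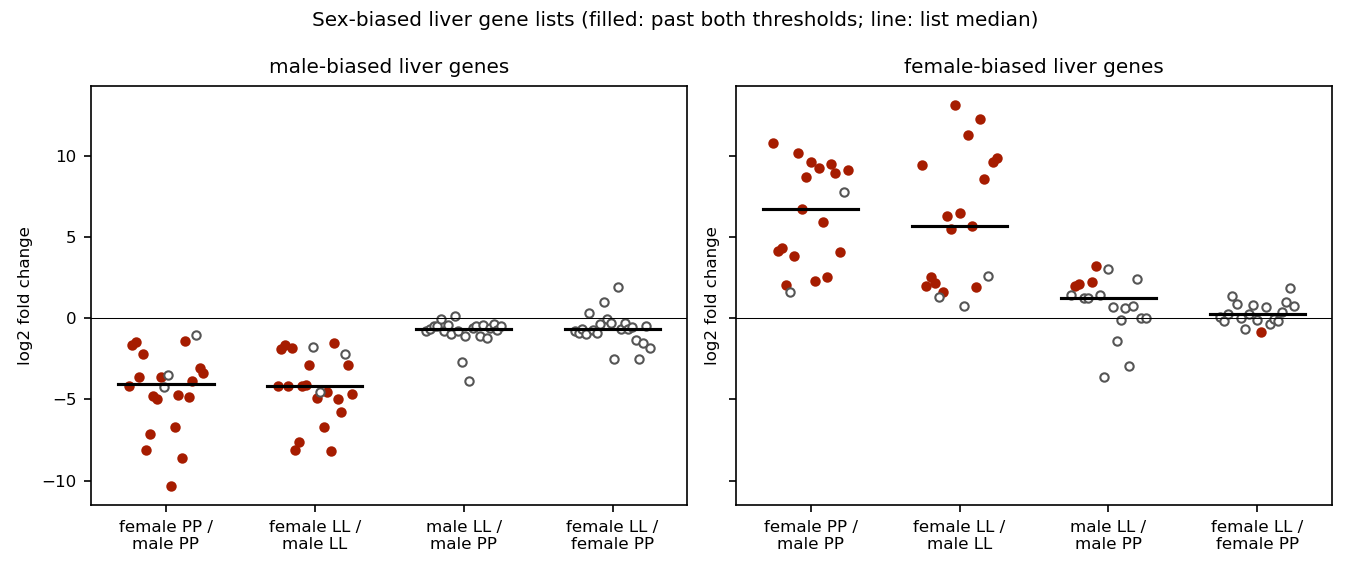
Log2 fold change of each gene (points) of the male-biased (left) and female-biased (right) lists in the 4 comparisons, with the list median (line); filled points passed both thresholds. Most points are filled in the sex comparisons, and in the genotype comparisons 4 are filled in males and 1 in females.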

How the data were processed

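Liver RNA of 18 mice was measured by RNA-seq, 1 library per mouse. Per the submitters' processing notes the reads were checked with FastQC and quantified with Salmon 1.4.0 on GRCm39, and the methods name GENCODE release M26. The authors deposited, per transcript, estimated counts (not scaled between libraries) and TPM (scaled to transcript length and library depth), with the transcript lengths.

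Groups came from the sample labels. The estimated counts were summed per gene with the GENCODE M39 annotation, which held 137570 of 139225 transcripts and at least 99.8% of the counts of every library, and rounded. A gene was tested when 4 or more libraries held 10 or more counts of it. DESeq2 1.42.0 in R 4.3.3 was fitted to all 18 libraries with the 4 groups as levels, with Benjamini-Hochberg adjustment over all genes tested, and called genes met the thresholds of the study's methods, an adjusted P below 0.05 with a fold of at least 1.3 or at most 0.7 (adjusted P alone for the interaction). Genes under the independent filter have no adjusted P. Totals of 3794671 to 6613905 counts set the counting precision. Intervals of DESeq2 fold changes come from its standard errors and include the spread between mice, while that of the Cux2 count ratio covers counting error only. Nothing in the labels says how the mice were related, and the p-values measure the spread between these mice.

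Shares of transcript forms were compared by two-sided exact permutation tests, and pairs of members by permutation within groups. Alternatives were edgeR 4.0.16, limma 3.58.1 on log2(TPM + 1) and log2(TPM + 0.1), TMM scaling, no low-count filter, no independent filter, a transcript length offset, terms for age and fragment length, the replicate number as a block, the groups of a contrast alone, and each library left out. A library was left out for all comparisons, also those whose groups do not hold it. Contrasts averaged over the other factor were added after the data were seen. Scripts were tested on simulated data. Windows around starts came from RefSeq (GRCm38.p6), and gene positions from GRCm39. Fragment length was estimated per library as the median gap between the length and the effective length given by Salmon, over transcripts of 3000 bases or more. Shared sequence was counted in words of 31 bases. All 10 members are named. Other genes named are up to 3 per list and comparison, those called with the smallest adjusted P, and the 3 genes most alike in pattern to a member, apart from those said to be named after their values were seen. The genes most alike to Igf1 are not reported here. The members and lists were chosen with earlier results of these data known.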

Additional observations from a re-analysis of the deposited data

Results flagged for a closer look

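In each group of 4 or 5 mice the highest or lowest value of a member was set against the others with Dixon's criterion. Of 40 groups tested 2 stood out, where chance alone flags about 1 in 20. Prlr in male LL replicate 1 was at 508 normalised counts, with the other 3 male LL livers between 186 and 218. That library also had the highest share of mitochondrial counts (17.9%), whose part was not tested. Cux2 in male LL replicate 4 was at 2.16 normalised counts, with the other 3 at 0, which stands for 2 counts.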

How the results depend on the processing

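Of 1480 log2 fold changes of members under other settings, 1403 stayed on their side of the threshold. These kept their sign, or changed it by less than the SE of the main estimate with no unadjusted p below 0.05. A further 30 changed sign by that SE or more, also with no unadjusted p below 0.05. Another 23 lost and 20 gained their call, and 4 reversed with an unadjusted p below 0.05 before or after. Counting values at any p, and leaving out the contrasts averaged over the other factor, the sign changed in 75. Among them was Prlr in male LL against male PP livers, from 0.29 to -0.16 without male LL replicate 1. The 4 were Ghr on the TPM scales, at 0.333 and 0.335 in female PP against male PP and 0.0841 and 0.0846 in female LL against male LL livers. Members called in female PP against male PP livers were 7 with limma on either TPM scale, where 4307 and 4757 of all 10938 genes were called. They were 5 with the difference averaged over genotypes (1166 of all genes) and 2 to 4 with 1 library left out (548 to 740 of all genes). In female LL against male LL livers they were 2 with edgeR (468 of all genes), 2 with a fragment length term (432) and 2 to 5 with 1 library left out (463 to 807). They were 2 without female LL replicate 5, male LL replicate 1 or male LL replicate 4. In male LL against male PP livers they were 0 to 1 with 1 library left out (20 to 60 of all genes), and 1 without male LL replicate 2 (44 of all genes).

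Genes called by edgeR were 3 (DESeq2 31) in males and 3 (DESeq2 72) in females by genotype, and 0 (DESeq2 13) for the interaction. Limma on log2(TPM + 1) called 4307 genes in female PP against male PP livers, 4223 higher and 84 lower, and on log2(TPM + 0.1) 4757, 4676 higher and 81 lower, where DESeq2 called 402 higher and 303 lower. It called 0 genes by genotype on the first scale, and 9 in males and 0 in females on the second. With fragment length as a term 14 genes were called in female LL against female PP and 432 in female LL against male LL livers (DESeq2 669). With age as a term 44 were called in female LL against female PP livers, with a transcript length offset 28 there and 53 in male LL against male PP livers, and without independent filtering 8 for the interaction. In female LL against male LL livers limma on log2(TPM + 1) called 451, 382 higher and 69 lower, and on log2(TPM + 0.1) 441, 378 higher and 63 lower, where DESeq2 called 364 higher and 305 lower. Averaged over the other factor 1166 genes were called by sex and 107 by genotype. With 1 library left out the DESeq2 counts ran from 20 to 60 genes in males and from 28 to 270 in females by genotype.

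As shares of TPM the long forms reversed for Ghr in female PP against male PP (2.28 percentage points), for Prlr in male LL against male PP (2.44) and for Prlr in female LL against female PP livers (0.882). With 1 library left out the difference of Ghr ran from -0.254 to 1.12 in female LL against female PP livers (-0.192 without female LL replicate 4), that of Prlr from -5.42 to 0.506 in male LL against male PP and from -5.65 to 0.277 in female PP against male PP livers, positive without male PP replicate 3. Pairs passing the threshold ran from 0 to 1: Stat5b with Igf1 without female PP replicate 1 (r = -0.85, permutation, adjusted p = 0.0018) and Bcl6 with Cux2 without male PP replicate 4 (r = 0.71, permutation, adjusted p = 0.0176). The causes were not tested.

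Replicate numbers did not pair the mice: over 25 same-numbered pairs the correlation of deviations ran from -0.169 to 0.159 (median 0.0367), with 3 over 0.1, and 4 of 18 libraries correlated best with their own number. With the replicate block 0 members were called by genotype in males, 0 in females, 2 in female PP against male PP, 3 in female LL against male LL and 0 for the interaction, and 34, 54, 572, 520 and 18 genes.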

Other observations

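The short Prlr form, Prlr-205, was looked at after its values were seen. Its share of the Prlr counts of male livers averaged 39.2% ± 4.4 with PP and 56.2% ± 8.5 with LL (SD over 4 mice). For females the share was 43.1% ± 6.6 with PP and 61.9% ± 9.4 with LL (5 mice). The male ranges did not overlap and the female ranges did. No test was made. Estimated mean fragment length was lower in LL than in PP libraries of both sexes, 407 against 518 bases in males and 292 against 448 in females. Its part in these shares was not tested.

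By the pattern over the 18 libraries, centred on the group means, the gene most like Ghr among 5644 compared was Eif4a2 (r = 0.86), followed by Syap1 and Utp11 (both 0.84). For Prlr it was Nono (0.80), for Socs2 Tufm (0.83), for Cish Phlda1 (0.80), for Bcl6 Elovl2 (0.82) and for Cux2 Nrbp2 (0.78). Each was the highest of all values computed for its member, and the points share libraries and depth.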
